A study of Mus musculus with 12 samples.

Results

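Lgr5, Olfm4 and Sox9, 3 genes used to mark intestinal stem and progenitor cells, were followed through lists of H3K27me3 islands from mouse small-intestinal epithelium. The genes were taken by name and by a fixed window on genome build mm9, not by a rank of their values. Earlier results of these data were known when they were chosen. The windows were chromosome 10 from 114870000 to 115040000 for Lgr5 (170 kb), chromosome 14 from 80385000 to 80435000 for Olfm4 (50 kb) and chromosome 11 from 112625000 to 112665000 for Sox9 (40 kb). An island is a stretch of 200 bp windows called as an enriched region in the chromatin immunoprecipitation (ChIP) library. Its reads are compared with the input control over the whole stretch, not in each 200 bp window. Of 81097 islands in 8 lists, 26 touched the gene windows: 21 at Lgr5, 2 at Olfm4 and 3 at Sox9.

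The lists came from 4 populations with 2 ChIP libraries each, which the series design calls biological duplicates. All mice were of a mixed C57BL/6 CD1 background. The embryonic groups were EpCAM-positive, CD31-negative and CD45-negative epithelium of embryos at E12.5 or E14.5 (days of embryonic age). The adult groups came from Lgr5EGFP-Cre-ERT males at postnatal day 60. Stem cells (ISC) were sorted for high Lgr5-EGFP signal, and enterocytes (AE), which absorb nutrients on the villus, as EpCAM-positive, CD31-negative and CD45-negative cells. The reporter cassette of that line sits in the Lgr5 gene itself, so the adult cells carry an altered Lgr5 allele. For the embryos, the labels give neither this allele nor the sex. Each population also had its own input control. Age, allele, sex, cell type and control therefore cannot be told apart in any comparison of embryonic with adult libraries.

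H3K27me3 is laid down by Polycomb repressive complex 2 and is known to cover genes that a cell lineage keeps silent, often as broad domains. Lgr5 is a receptor for R-spondins, secreted proteins that strengthen Wnt signalling, and marks the dividing stem cells at the crypt base. Olfm4 is a secreted glycoprotein made in quantity by the same cells. Sox9 is a transcription factor of the HMG-box family, active in crypt progenitors and Paneth cells of the adult and more widely in the embryonic epithelium. The lists measure the mark and not expression, so the sorted cells could not be checked against marker genes.

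The lists held 6171 to 17407 islands and 1171968 to 6627853 ChIP reads inside them. The covered length ran from 60.8 to 109 Mb in 7 lists and reached 241 Mb in ISC replicate 1. Reads are listed only inside the islands of each list, so total depth is unknown, and an uncovered position may still carry the mark below the calling threshold. Each level is therefore given in 3 ways: the share of the window covered, the ratio of ChIP to control reads of an island, and the authors' fold, which is that ratio divided by a constant of the list (0.571 to 1.46) that accounts for library sizes. A fold of 1 thus corresponds to a ratio equal to the constant of the list, not to a ratio of 1. Fewer cells carrying the mark and less of it per cell cannot be told apart.

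**Figure D1:**
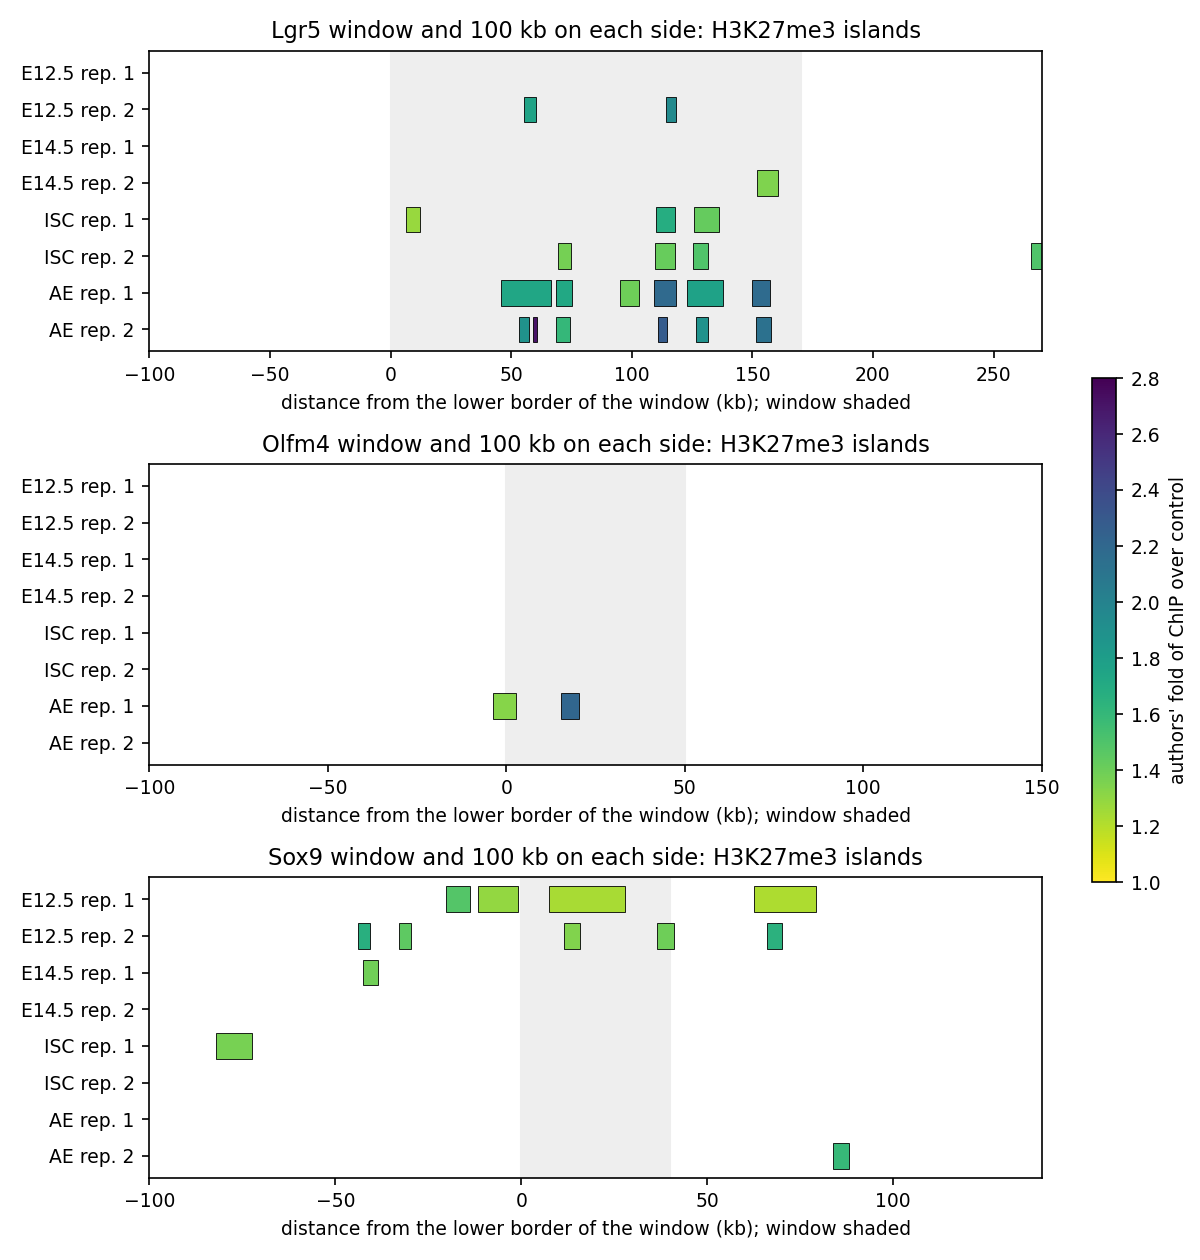
H3K27me3 islands over the Lgr5, Olfm4 and Sox9 windows (shaded) and 100 kb on each side, by distance in kb from the lower border of the window, with 1 row per list and colour for the authors' fold. The Lgr5 window carries islands in all 4 adult lists and 2 embryonic ones, the Olfm4 window in AE replicate 1 alone, and the Sox9 window in both E12.5 lists alone.

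At Lgr5 the mark covered more of the window in every adult library than in any embryonic library. In the order of the replicates, the E12.5 libraries covered 0% and 5.29% of it and the E14.5 libraries 0% and 5.18%. The ISC libraries covered 14.0% and 11.9%, and the AE libraries 39.4% and 15.8%. The embryonic and adult libraries did not overlap, and AE lay above ISC, though AE replicate 2 exceeded ISC replicate 1 by little. Islands were present in 6 of 8 lists, whereas 61.0% of all 170 kb windows of the genome held an island in at least 1 list and 21.7% in 6 or more. The 2 lists without an island over Lgr5 were E12.5 replicate 1 and E14.5 replicate 1. In E12.5 replicate 1 the nearest islands lay 118 kb below and 1571 kb above the window, and in E14.5 replicate 1 they lay 265 kb below and 410 kb above.

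The adult libraries covered 20.3% ± 12.9 of the Lgr5 window (SD, n = 4) and the embryonic libraries 2.62% ± 3.02 (SD, n = 4). The difference of 17.6 percentage points had an exact permutation p of 0.0286 (two-sided, over all 70 assignments of the libraries), the smallest this design can give. Of 15092 windows of 170 kb tiled over the autosomes and chromosome X, 3.47% likewise had all adult libraries above all embryonic ones, and 1.21% had the opposite order. Over all these windows and the Lgr5 window itself, the Benjamini-Hochberg adjusted exact permutation p was 0.609, so the difference does not pass correction across the genome. An exact permutation p of 0.0286 is the floor for every window, and 707 windows reached it. The adjusted value follows from that count, so it could not single out Lgr5 whatever the size of its difference. The mean difference over all windows was 1.46 points, and 2.78% of windows reached a difference as high as that at Lgr5. The permuted units were single libraries, so the p-value does not extend to the 4 populations. Without AE replicate 1 the difference was 11.3 points (exact permutation p = 0.0286). It no longer passed among islands with a false discovery rate (FDR) of 1e-10 or less (10.4 points, exact permutation p = 0.429), with a fold of 1.5 or more (12.47 points, p = 0.257), at equal covered length of the lists (15.4 points, p = 0.143), or without any 1 embryonic library (16.8 to 18.5 points, exact permutation p = 0.0571 for each).

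**Figure D2:**
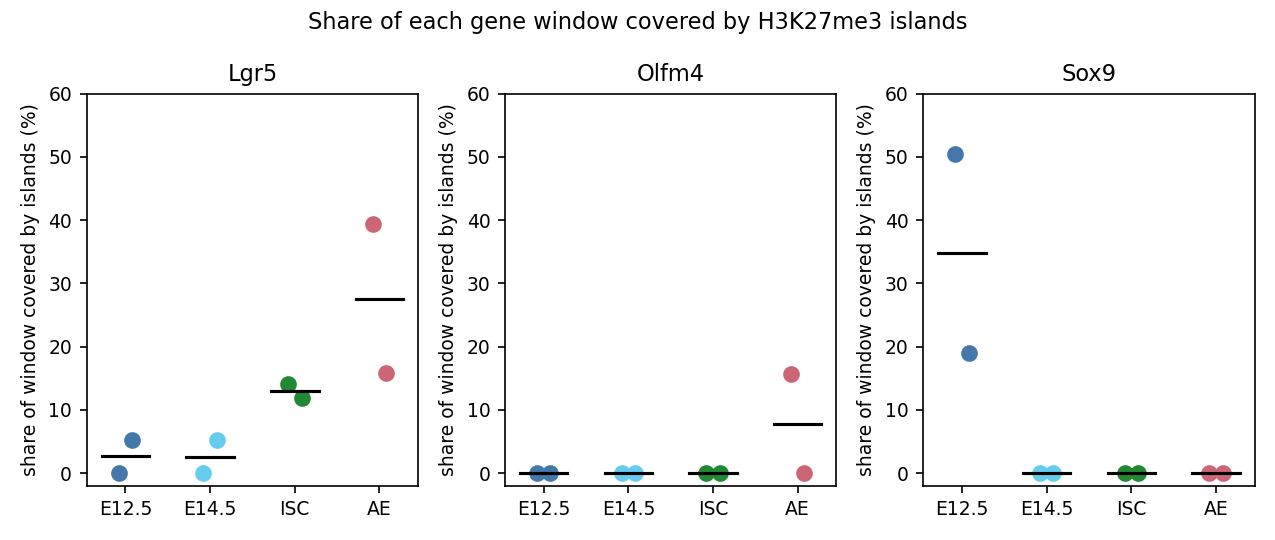
Share of each gene window covered by H3K27me3 islands (%), with 1 point per library, the mean of each population as a bar, and the 4 populations on the horizontal axis. At Lgr5 the 4 adult libraries sit between 11.9% and 39.4% and the embryonic ones at or below 5.29%, Olfm4 is above 0 in 1 AE library, and Sox9 in both E12.5 libraries.

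By population, Lgr5 coverage stood at 2.65% ± 3.74 (SD, n = 2) at E12.5, 2.59% ± 3.66 (SD, n = 2) at E14.5, 12.9% ± 1.497 (SD, n = 2) in ISC and 27.6% ± 16.7 (SD, n = 2) in AE. Among neighbours in this order, E12.5 and E14.5 overlapped, and the others did not. From E14.5 to ISC the share was 10.4 points higher with no overlap, which 9.76% of all 170 kb windows showed in that direction. This step came to 0 points with an FDR of 1e-10 or less, 2.29 with a fold of 1.5 or more and 5.94 at equal covered length, where ISC replicate 1 was at 0% and the groups overlapped. From ISC to AE it was 14.6 points higher with no overlap, which 1.74% of windows showed, while 7.06% had AE below ISC. Over all windows the mean of AE minus ISC was -2.56 points, and 0.205% of them had a difference from ISC to AE as high as that at Lgr5. With 2 libraries against 2 no exact permutation p below 0.333 can be had, so neither step was tested further. The size of the AE excess over ISC rests largely on AE replicate 1. It was 2.82 points without that library and 26.5 points without AE replicate 2. The excess was 20.9 points with an FDR of 1e-10 or less and 23.0 with a fold of 1.5 or more. At equal covered length it was 21.6. AE replicate 1 was 1.68 times the size of AE replicate 2, from the control they share, and the part of library size in their difference was not tested.

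**Figure D3:**
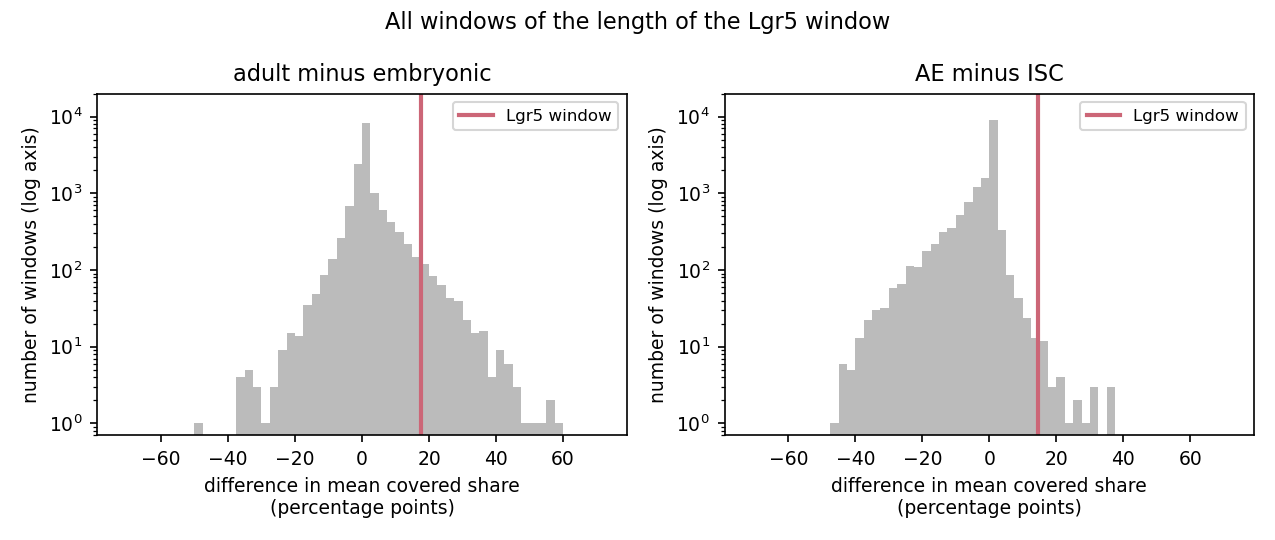
Number of 170 kb windows of the genome (log axis) by difference in mean covered share in percentage points, for adult minus embryonic libraries and for AE minus ISC libraries, with the Lgr5 window as a line. The Lgr5 window lies at 17.6 points in the first panel and 14.6 points in the second, where 0.205% of windows lie as high.

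The islands over Lgr5 were not spread evenly but fell into 7 segments, 5 of them called in 3 or more libraries. Mouse Lgr5 is transcribed toward lower coordinates, so the start of the gene lies toward the upper border of the window. An mm9 annotation was not used here, and which segments are exonic, intronic or intergenic is not given. The window was covered over 76.0 kb by at least 1 library and over 36.2 kb by exactly 1, of which AE replicate 1 alone gave 27.6 kb. No position was covered in more than 5 libraries.

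The most widely shared segment ran from 114979401 to 114988200. AE replicate 1 called all of it as an island of 8.8 kb with 376 ChIP and 118 control reads, a ratio of 3.19 (95% exact binomial interval 2.58 to 3.95) and a fold of 2.18. AE replicate 2 called 114981001 to 114984600 with 105 and 53 reads, a ratio of 1.98 (1.41 to 2.81) and a fold of 2.29. Both AE folds were high within their own lists, where 6.13% and 4.73% of islands had a fold at least as high. ISC replicate 1 called 114980201 to 114988000 with 173 and 131 reads, a ratio of 1.32 (1.05 to 1.67) and a fold of 1.69. ISC replicate 2 called 114979601 to 114987800 with 148 ChIP reads, a ratio of 1.02 (0.806 to 1.29) and a fold of 1.42. The ISC folds were nearer the middle of their lists, with 25.5% and 54.5% of islands at least as high. E12.5 replicate 2 called 114984201 to 114988200 with 72 and 59 reads, a ratio of 1.22 (0.853 to 1.75) and a fold of 1.95. All intervals cover counting error only. Divided by the constant of its list, the interval lay above a fold of 1 for 25 of the 26 islands over the 3 windows. The islands were called as enriched, so this follows largely from the calling.

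The segment from 114993001 to 115008000 was called in all 4 adult libraries and in no embryonic one. Its islands measured 15.0 kb in AE replicate 1 (556 ChIP and 216 control reads, ratio 2.57, fold 1.76) and 5.0 kb in AE replicate 2 (114996601 to 115001600, 121 and 74 reads, ratio 1.64, fold 1.89). In ISC replicate 1 the island spanned 114995801 to 115006000 (222 and 199 reads, ratio 1.12, fold 1.42). In ISC replicate 2 it spanned 114995401 to 115001800 (122 and 113 reads, ratio 1.08, fold 1.498). The 4 islands thus share a stretch of 5.0 kb, from 114996601 to 115001600. Together with 3.2 kb of the preceding segment (114981001 to 114984200), 8.2 kb were covered in all adult and no embryonic libraries. Of all 170 kb windows, 5.58% held any such length and 0.987% held at least as much.

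Nearest the upper border, from 115019801 to 115030600, the mark was called in both AE lists and E14.5 replicate 2, and in neither ISC list. AE replicate 1 had 372 ChIP and 117 control reads in 115019801 to 115027400, a ratio of 3.18 (95% exact binomial interval 2.58 to 3.95) and a fold of 2.18. AE replicate 2 had 212 and 115 reads in 115021401 to 115027800, a ratio of 1.84 (1.46 to 2.33) and a fold of 2.13. E14.5 replicate 2 had 163 and 212 reads in 115021801 to 115030600, a ratio of 0.769 (0.623 to 0.948). Its fold was 1.35 (1.09 to 1.66), which 84.8% of the islands of its list matched or exceeded. The 6.0 kb common to both AE libraries here were the longest stretch of the window called in both AE and no ISC libraries. Such stretches summed to 13.0 kb, of which an embryonic library also called 9.0 kb. The reverse, length called in both ISC and no AE libraries, came to 0 kb.

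The other 4 segments were called in 3 libraries or in 1. From 114915601 to 114936400, AE replicate 1 called an island of 20.8 kb (825 ChIP and 326 control reads, ratio 2.53, fold 1.73), the longest over Lgr5. Within it AE replicate 2 called 114923201 to 114927400 (116 and 71 reads, ratio 1.63, fold 1.88) and 114929001 to 114930800 (68 and 29 reads, ratio 2.34, fold 2.71), and E12.5 replicate 2 called 114925201 to 114930200 (97 and 88 reads, ratio 1.102, fold 1.76). From 114938401 to 114945400, both AE libraries (folds 1.72 and 1.60, ratios 2.51 and 1.39) and ISC replicate 2 (fold 1.38, ratio 0.992) had islands. These were places where ISC replicate 1 had none. A segment from 114965201 to 114973000 was called in AE replicate 1 alone (fold 1.40, ratio 2.04). The segment nearest the lower border, 114876401 to 114882200, was called in ISC replicate 1 alone with 132 reads in both libraries, a ratio of 1.00 (95% exact binomial interval 0.780 to 1.28) and a fold of 1.28 whose interval, 0.995 to 1.64, includes 1.

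The ISC libraries thus called fewer segments than AE, with lower ratios, and both were sorted from the same mouse line. In the Lgr5 window the ratio of ChIP to control reads ran from 2.04 to 3.19 in AE replicate 1, 1.39 to 2.34 in AE replicate 2, 1.00 to 1.32 in ISC replicate 1 and 0.992 to 1.08 in ISC replicate 2. These ratios depend on the constants of the lists, which were 1.46, 0.867, 0.784 and 0.721. The fold ran from 1.40 to 2.18, 1.60 to 2.71, 1.28 to 1.69 and 1.38 to 1.498 in the same order. The controls of ISC and AE differ, so these folds are set side by side and not tested. In AE, 8 of 12 islands over Lgr5 had an FDR of 1e-10 or less (5 in replicate 1 and 3 in replicate 2), and 0 of the 6 ISC and 0 of the 3 embryonic islands did. Over whole lists, 34.4% and 19.2% of islands passed that FDR in AE, 38.8% and 18.4% in ISC, 26.2% in E12.5 replicate 2 and 44.0% in E14.5 replicate 2. The lowest FDR among the ISC islands over Lgr5, 2.80e-10 in replicate 1, missed it narrowly. With that FDR the mark at Lgr5 covered 34.8% and 6.94% of the window in AE and 0% in each of the other 6 libraries. At equal covered length, ISC replicate 1, whose list is the longest, kept 0% of the Lgr5 window, ISC replicate 2 kept 11.9%, and AE kept 39.4% and 15.8%. That setting kept 10.9% of all islands in ISC replicate 1, 100% in ISC replicate 2, and 66.4% and 54.2% in AE. It was thus far stricter for ISC replicate 1 than for the other 3 adult lists. Control reads per kb ran from 13.4 to 18.0 in the AE islands, in each replicate below its list median of 16.3 or 18.6.

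**Figure D4:**
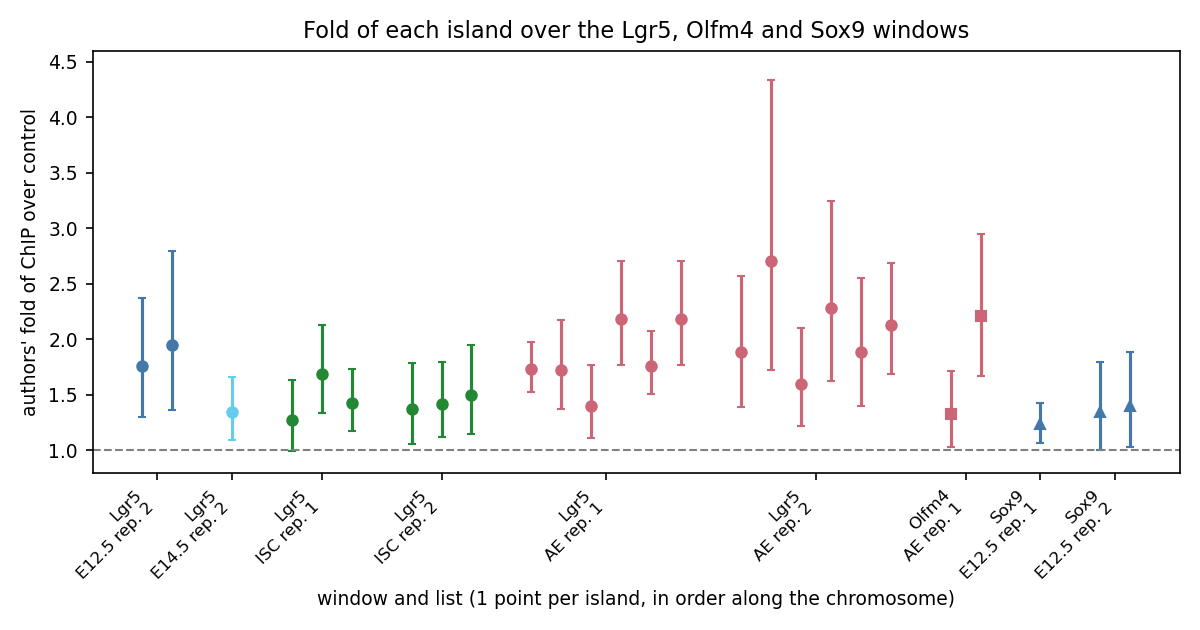
The authors' fold of ChIP over control for each of the 26 islands over the Lgr5, Olfm4 and Sox9 windows, with 95% exact binomial intervals of counting error, grouped by window and list and coloured by population, and a dashed line at a fold of 1. The 12 AE islands over Lgr5 lie between 1.40 and 2.71 and the 6 ISC islands between 1.28 and 1.69, and the 3 Sox9 islands lie between 1.24 and 1.40.

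Between libraries, much of the Lgr5 length called elsewhere lay inside islands of AE replicate 1. Of the 26.8 kb called in AE replicate 2, 98.5% was also called in AE replicate 1, which is 39.4% of the length of the latter. All 20.2 kb called in ISC replicate 2 and all 9.0 kb called in E12.5 replicate 2 lay inside AE replicate 1 islands, as 30.1% and 13.4% of its length. Of the length called in ISC replicate 1 and in E14.5 replicate 2, 75.6% and 63.6% did. The ISC replicates shared 13.6 kb, 57.1% of replicate 1 and 67.3% of replicate 2. E12.5 replicate 2 and E14.5 replicate 2 shared 0 kb of the Lgr5 window, so no position was called in both embryonic ages.

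Olfm4 carried no island in 7 of 8 lists. The covered share was 0% in both E12.5, both E14.5 and both ISC libraries, 15.6% in AE replicate 1 and 0% in AE replicate 2. The AE replicates disagree, and AE (7.80% ± 11.0, SD, n = 2) overlaps every other population. The adult libraries were 3.90 points above the embryonic ones (exact permutation p = 1.00). An island in exactly 1 list was found in 13.4% of all 50 kb windows, and one in AE replicate 1 alone in 0.953%. Any island was present in 11.4% to 25.03% of these windows, depending on the list, so absence of a call is the usual state of a window of this length. ISC replicate 1, with the highest of these shares, had its nearest islands 138 kb below and 178 kb above the Olfm4 window. In the other 7 lists the nearest island above lay 4405 to 4409 kb away.

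The AE replicate 1 islands over Olfm4 lay at 80381201 to 80387600, which crosses the lower border of the window, and at 80400201 to 80405400. The first had 188 ChIP and 97 control reads, a ratio of 1.94 (95% exact binomial interval 1.51 to 2.503) and a fold of 1.33. The second, 5.2 kb long, had 216 and 67 reads, a ratio of 3.22 (2.44 to 4.31) and a fold of 2.21, with an FDR of 3.74e-24. Its fold was among the higher ones of its list, where 5.78% of islands reached it, while 69.9% reached that of the first. The second island was the single one at Olfm4 with an FDR of 1e-10 or less.

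Polycomb domains in mammals are known to form mainly at promoters rich in CG dinucleotides, and the RefSeq promoter table (build GRCm38.p6) held an entry for 1 of the 3 genes, Olfm4. Its 250 bases before the gene start are shown 5′ to 3′ on the plus strand, with CG in capitals.
Olfm4: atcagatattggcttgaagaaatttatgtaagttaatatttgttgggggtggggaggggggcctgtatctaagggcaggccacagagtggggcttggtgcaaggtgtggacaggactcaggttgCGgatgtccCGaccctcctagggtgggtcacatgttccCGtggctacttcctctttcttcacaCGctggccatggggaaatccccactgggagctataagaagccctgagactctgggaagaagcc
The stretch holds 4 CG, which reads the same on both strands, against a median of 6 over 32851 promoter entries. Of these entries, 44.4% hold 4 or fewer and 62.2% hold 4 or more. The share of G and C in the stretch was 54.0% against a median of 52.4%. Whether CG content bears on the calls at Olfm4 was not tested. The build differs from that of the islands, so whether the AE replicate 1 island covers these bases is not given.

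Sox9 showed the opposite distribution in time, with islands in both E12.5 libraries and in none of the other 6. The covered share was 50.5% and 19.0% at E12.5 (34.8% ± 22.3, SD, n = 2) and 0% in both E14.5, both ISC and both AE libraries. Of all 40 kb windows, 0.518% had islands in both E12.5 lists and in no other list, and 1.64% had E14.5 below E12.5 with no overlap. The difference of E14.5 from E12.5 was -34.8 points, a step for which 2 libraries against 2 allow no exact permutation p below 0.333. It was -19.0 points without E12.5 replicate 1 and -50.5 points without E12.5 replicate 2. The difference of adult from embryonic libraries was -17.4 points (exact permutation p = 0.429), and -6.33 points without E12.5 replicate 1. The embryonic libraries overlap the adult ones because both E14.5 libraries were at 0%.

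The Sox9 islands were weak. E12.5 replicate 1 called 112632601 to 112652800, an island of 20.2 kb with 323 ChIP and 449 control reads, a ratio of 0.719 (95% exact binomial interval 0.622 to 0.832) and a fold of 1.24. E12.5 replicate 2 called 112636601 to 112640800 with 91 and 108 reads, a ratio of 0.843 (0.630 to 1.12) and a fold of 1.34, and 112661601 to 112666000 with 85 and 97 reads, a ratio of 0.876 (0.647 to 1.18) and a fold of 1.40. Their folds were low for their lists, where 93.6%, 92.3% and 84.1% of islands had a fold at least as high, and their FDRs were 4.07e-04, 0.00461 and 0.00233. The fold intervals, 1.07 to 1.43 in replicate 1 and 1.01 to 1.79 and 1.03 to 1.89 in replicate 2, lay above 1. Control reads per kb were 22.0 to 25.7, above the list medians of 20.9 and 20.8. No Sox9 island had a fold of 1.5 or more or an FDR of 1e-10 or less, so at either setting the E12.5 share was 0%, as in the other libraries. Of all islands in the E12.5 lists, 8.80% and 26.2% passed that FDR and 27.9% and 67.8% that fold. At equal covered length it was 50.5% in replicate 1 and 0% in replicate 2.

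The E12.5 replicates shared 4.2 kb at Sox9 (112636601 to 112640800), 20.8% of the length in replicate 1 and 55.3% of that in replicate 2. The second island of replicate 2 lay beyond the end of the replicate 1 island and crossed the upper border of the window. The E12.5 islands did not stop at the Sox9 window. Within 100 kb of it, each E12.5 list held 3 further islands, whereas E14.5 replicate 1, ISC replicate 1 and AE replicate 2 held 1 each and the remaining 3 lists 0. The folds of all E12.5 islands in that span, inside the window or near it, ran from 1.22 to 1.48 in replicate 1 and from 1.34 to 1.66 in replicate 2. In AE replicate 1, the list with most length over Lgr5, the nearest islands lay 899 kb below and 810 kb above the Sox9 window.

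Side by side, no library marked all 3 genes. Lgr5 and Olfm4 were both marked in AE replicate 1 alone, Lgr5 and Sox9 in E12.5 replicate 2 alone, and Olfm4 and Sox9 in none. Both Lgr5 and Olfm4 reached their highest share in AE replicate 1, at 12.7 and 5.02 times the mean share of windows of the same length in that list. Relative to the same mean in its own list, the Lgr5 share was 4.46 times in AE replicate 2, 5.03 and 1.49 times in ISC, 1.79 times in E12.5 replicate 2 and 1.22 times in E14.5 replicate 2. On this measure AE overlapped ISC, and the adult libraries overlapped the embryonic ones. The share of 170 kb windows covered at least as much as Lgr5 was 1.03% and 6.78% in AE, 22.1% and 6.22% in ISC, 17.3% in E12.5 replicate 2 and 21.8% in E14.5 replicate 2.

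Most folds over the 3 genes were below that of a region called in every library. The longest stretch covered in all 8 lists, 68.0 kb on chromosome 15 (102775601 to 102843600), served as a reference. It was picked from these same lists for its broad marking, with islands of 76.6 to 270.2 kb, so lower folds elsewhere follow largely from that choice. Its islands had folds of 2.01 and 4.67 in the E12.5 lists and 3.85 and 5.37 in the E14.5 lists. They were 4.03 and 2.32 in the ISC lists, and 2.36 and 2.43 in the AE lists. In both ISC lists the highest fold at Lgr5, 1.69 and 1.498, was below that of this stretch. In AE replicate 1 the highest Lgr5 fold of 2.18 was also below it, whereas in AE replicate 2 the 1.8 kb island over Lgr5, with a fold of 2.71 (95% exact binomial interval 1.73 to 4.33), was above it by less than its counting error. The Sox9 folds of 1.24 and 1.40 in the E12.5 lists were below the 2.01 and 4.67 of the stretch.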

How the data were processed

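H3K27me3 ChIP was measured in 8 libraries of 4 populations (2 each), with 4 inputs that enter as control reads. Per the submitters' processing notes, the authors used bcl2fastq 1.8.4, Bowtie 1.1.2, SAMtools 1.2 and SICER 1.1 on mm9; settings are not given in the sources used here. Each deposited list, called per replicate, gives whole-number counts of ChIP and control reads per island. The authors' p-value and FDR (none above 0.01) and their fold (a ratio) per island were used only to describe, rank or filter islands within a list. Where replicates share an interval their control counts are identical (for example 52 of 52 intervals at E14.5), so they share a control.

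With Python 3.11.15, numpy 2.4.6, pandas 2.3.3 and scipy 1.17.1, covered shares were computed per window and tested by exact two-sided permutation over libraries. The test was also run over windows of each length tiled from the first island of each chromosome, without chromosome Y. Simulated lists with planted differences checked the computation only, not the rate of false calls. Intervals are exact Clopper-Pearson at 95%, counting error only. Island borders are 1-based. Alternatives were an FDR of 1e-10 or less, a fold of 1.5 or more, equal covered length (60.8 Mb), windows 20 kb wider or 10 kb narrower per side, each library left out, and the replicate block. The rule for named genes was the 3 members in every list, and the longest stretch covered in all lists as reference. Members, windows and tests were chosen with earlier results of these data known. The 12 comparisons at the members were not adjusted among themselves.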

Additional observations from a re-analysis of the deposited data

Results flagged for a closer look

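Among the 4 adult libraries, AE replicate 1 stood apart at Lgr5, with 39.4% of the window covered against 11.9% to 15.8% in the others. The gap to the next library was 0.859 of the whole range. AE replicate 1 also stood apart at Olfm4, with 15.6% covered against 0% in the other 3 adult libraries. A far library was looked for in 4 sets of 4 libraries, and chance flags about 1 in 20 sets of normally distributed values. That rate does not hold at Olfm4, where an island in any 1 adult list alone gives a flag. The adult set also joins ISC and AE, so at Lgr5 the rate is only a rough guide. The list of AE replicate 1 held 8232 islands, fewer than the 11845 of AE replicate 2, and its library was 1.68 times the size of AE replicate 2.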

How the results depend on the processing

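Values are differences in mean covered share in percentage points. At Lgr5, adult minus embryonic stayed positive in all settings run but lost its call with an FDR of 1e-10 or less (10.4, exact permutation p = 0.429), a fold of 1.5 or more (12.47, p = 0.257), equal covered length (15.4, p = 0.143) and the replicate block (17.6, exact permutation p = 0.0556, the smallest that block allows being the same). It ranged from 11.3 to 20.4 with 1 library left out (exact permutation p from 0.0286 to 0.0571). E14.5 minus E12.5 at Lgr5, -0.06, changed sign to 2.53 without E14.5 replicate 1 and 2.59 without E12.5 replicate 2, and was lowest at -2.71. ISC minus E14.5 at Lgr5, 10.4, fell to 0 with an FDR of 1e-10 or less, 2.29 with a fold of 1.5 or more and 5.94 at equal covered length. AE minus ISC at Lgr5, 14.6, ranged from 2.82 to 26.5 with 1 library left out. It was 20.9 with an FDR of 1e-10 or less, 23.0 with a fold of 1.5 or more and 21.6 at equal covered length. At Olfm4, AE minus ISC was 0 without AE replicate 1 and 15.6 without AE replicate 2. At Sox9, E14.5 minus E12.5, -34.8, was 0 with an FDR of 1e-10 or less and with a fold of 1.5 or more, -55.0 in the narrower window, and -50.5 to -19.0 with 1 library left out. Adult minus embryonic at Sox9 ranged from -23.2 to -6.33 with 1 library left out. Windows with any island in both lists of E12.5, E14.5, ISC and AE made up 21.0%, 26.6%, 23.5% and 24.2% at 170 kb, 7.33%, 11.6%, 10.1% and 9.98% at 50 kb, and 6.07%, 10.0%, 8.83% and 8.55% at 40 kb, where at least 50% covered gave 0.0596% to 1.24%. Whether same-numbered libraries form pairs was not settled. Their deviations from the group means, over 50 kb windows, correlated from -0.29 to 0.16. With 2 libraries per group these deviations also hold differences in list length, so they cannot decide it. The cause of these changes was not tested. Depth limits all of this, since reads outside islands are not listed.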
